A study of Mus musculus with 24 samples.

Results

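The interferon response genes described here are 43 mouse genes whose transcripts interferons are known to raise. They were taken by symbol from a table of 55938 genes, and all 43 were found in it. RNA was sequenced from 12 gliomas that had been started in utero, by somatic gene transfer of PDGFB to the telencephalic ventricles of embryos. Each tumour gave a library of fluorescent glioma cells, labelled GFP in 11 tumours and RED in tumour 3057E, and a library of surrounding cells sorted as negative for that fluorescence. The 24 libraries form 6 groups of 4.

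Asymptomatic gliomas and their surrounding cells came from tumours 3228A, 3228B and 3228D at 33 days and 3229B at 34 days. Early symptomatic gliomas and their surrounding cells came from tumours 3108C and 3108D at 43 days, 3109D at 50 days and 3145A at 35 days. Late gliomas and their surrounding cells came from tumours 3054A at 120 days, 3054B and 3054C at 175 days and 3057E at 100 days. Lists of 4 values follow this order of codes. The letters at the end of each label separate early from late. Every library came from a brain that received PDGFB, and no brain without PDGFB was analysed here. The code prefixes differ between stages, so stage, age and prefix cannot be told apart. Strain, sex and the promoter driving PDGFB are not given in the sources used here. Nothing in the labels says that the 4 tumours of a stage came from separate litters or days of work, and p-values measure only the spread between these tumours.

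Type I interferons (the alpha and beta forms) bind the receptor chains Ifnar1 and Ifnar2, and the kinases Jak1 and Tyk2 then activate a complex holding Stat2 and Irf9 that binds interferon-stimulated response elements in promoters. Interferon gamma acts through Ifngr1 and Ifngr2, and promoters of its targets carry gamma-activated sites. The induced proteins block viral replication, sense foreign or misplaced RNA and DNA, and feed back on the pathway itself. In the brain, microglia are known as a cell type that expresses many of these genes.

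Library totals ran between 9.08e+06 and 1.55e+07 expected counts. The summed level of markers of oligodendrocyte progenitors, the cell type PDGFB gliomas are known to resemble, was 10044 to 17458 CPM (counts per 1e+06 counts) in the gliomas and 590 to 12505 CPM in the surrounding cells, so the populations overlapped. The summed level of 14 microglia markers was 153 to 819 CPM in 11 gliomas and 5252 to 20042 CPM in 11 surrounding libraries. Tumour 3057E stood apart, with 2493 CPM of microglia markers in its glioma library and 2091 CPM in its surrounding library. No microglia marker was at 0 in any library. In the early pairs 3108D and 3109D, Xist was high in opposite populations (1591 CPM in the 3108D glioma against 2.08 CPM in its surrounding library, and 1.89 CPM in the 3109D glioma against 1079 CPM in its surrounding library), so these 4 libraries go against their shared codes. Both tumours are early, and no group mean is touched. Results on stages are given below with and without 3057E.

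Of the 43 genes, 32 had a promoter entry in RefSeq on GRCm38.p6, covering 250 bases before to 50 bases after the start. The core of an interferon-stimulated response element, GAAA and GAAA parted by any 2 bases, was searched on both strands with overlapping matches counted. It lay in 20 of these 32 genes (62.5%), against 1079 of all 27025 genes with an entry (3.993%). The gamma-activated site core TTCNNNGAA lay in 8 of the 32 genes (25%), against 9.554% of all genes with an entry. A match is a description of the letters and not evidence of binding. Entries were not used for Dhx58, Ifi204, Ifi27, Iigp1, Mx1, Mx2, Oas2, Parp14, Rtp4, Usp18 and Zbp1. The 5 stretches of 220 bases shown here belong to the genes on which the results turn. Capitals mark this response element core or its reverse complement, and each sequence runs 5′ to 3′ on the gene's own strand.
Ifit1, chr19:34640689-34640908, plus strand: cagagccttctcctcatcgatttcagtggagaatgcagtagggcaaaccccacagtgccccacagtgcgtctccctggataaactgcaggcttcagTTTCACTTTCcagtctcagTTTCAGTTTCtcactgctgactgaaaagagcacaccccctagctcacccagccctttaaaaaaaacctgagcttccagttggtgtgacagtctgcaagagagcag
Isg15, chr4:156200799-156201018, minus strand: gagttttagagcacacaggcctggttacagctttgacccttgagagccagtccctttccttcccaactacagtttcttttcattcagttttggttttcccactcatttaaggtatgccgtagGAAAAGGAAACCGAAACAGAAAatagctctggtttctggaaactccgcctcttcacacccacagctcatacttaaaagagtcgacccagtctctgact
Irgm1, chr11:48871401-48871620, minus strand: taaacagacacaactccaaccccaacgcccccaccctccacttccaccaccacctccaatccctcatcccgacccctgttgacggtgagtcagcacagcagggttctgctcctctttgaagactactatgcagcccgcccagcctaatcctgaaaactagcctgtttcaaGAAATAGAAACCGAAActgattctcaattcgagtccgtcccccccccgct
Trim30a, chr7:104465174-104465393, minus strand: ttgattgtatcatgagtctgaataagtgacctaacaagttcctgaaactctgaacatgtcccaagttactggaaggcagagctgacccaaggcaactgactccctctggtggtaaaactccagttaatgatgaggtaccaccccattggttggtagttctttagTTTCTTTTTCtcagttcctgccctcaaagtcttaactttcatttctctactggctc
Ifit2, chr19:34550494-34550713, plus strand: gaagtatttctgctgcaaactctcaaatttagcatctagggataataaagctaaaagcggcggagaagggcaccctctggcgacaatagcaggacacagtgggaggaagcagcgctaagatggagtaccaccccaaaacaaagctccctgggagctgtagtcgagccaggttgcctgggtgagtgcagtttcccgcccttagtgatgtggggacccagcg
Ifit1 held matches that begin 104 and 85 bases before the start, and Isg15 held 3 overlapping matches that begin 78, 72 and 66 bases before it. Irgm1 held 2 overlapping matches that begin 30 and 24 bases before its start. Trim30a held a match 36 bases before this start, and its other entry held another 2 bases after the start. Neither of the 2 entries of Ifit2 held this response element core, and 1 of them held the gamma-activated site core.

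In the gliomas, 24 to 33 of the 43 genes reached 1 CPM in each of 11 libraries, and 42 did so in 3057E. In the surrounding cells all 43 genes reached 1 CPM in all 12 libraries. On the scale of log2(CPM + 1), the mean over the 43 genes was 2.33, 1.94, 1.85 and 2.49 in the asymptomatic gliomas. It was 2.14, 2.18, 1.99 and 2.41 in the early gliomas, and 2.29, 2.95, 2.64 and 3.84 in the late gliomas, the last value being 3057E. No surrounding library fell within the range of the 11 other gliomas. The mean was 4.69, 4.12, 3.45 and 3.98 in the asymptomatic surrounding cells, 4.14, 3.37, 3.72 and 4.14 in the early ones, and 5.41, 5.60, 6.28 and 4.97 in the late ones.

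**Figure D1:**
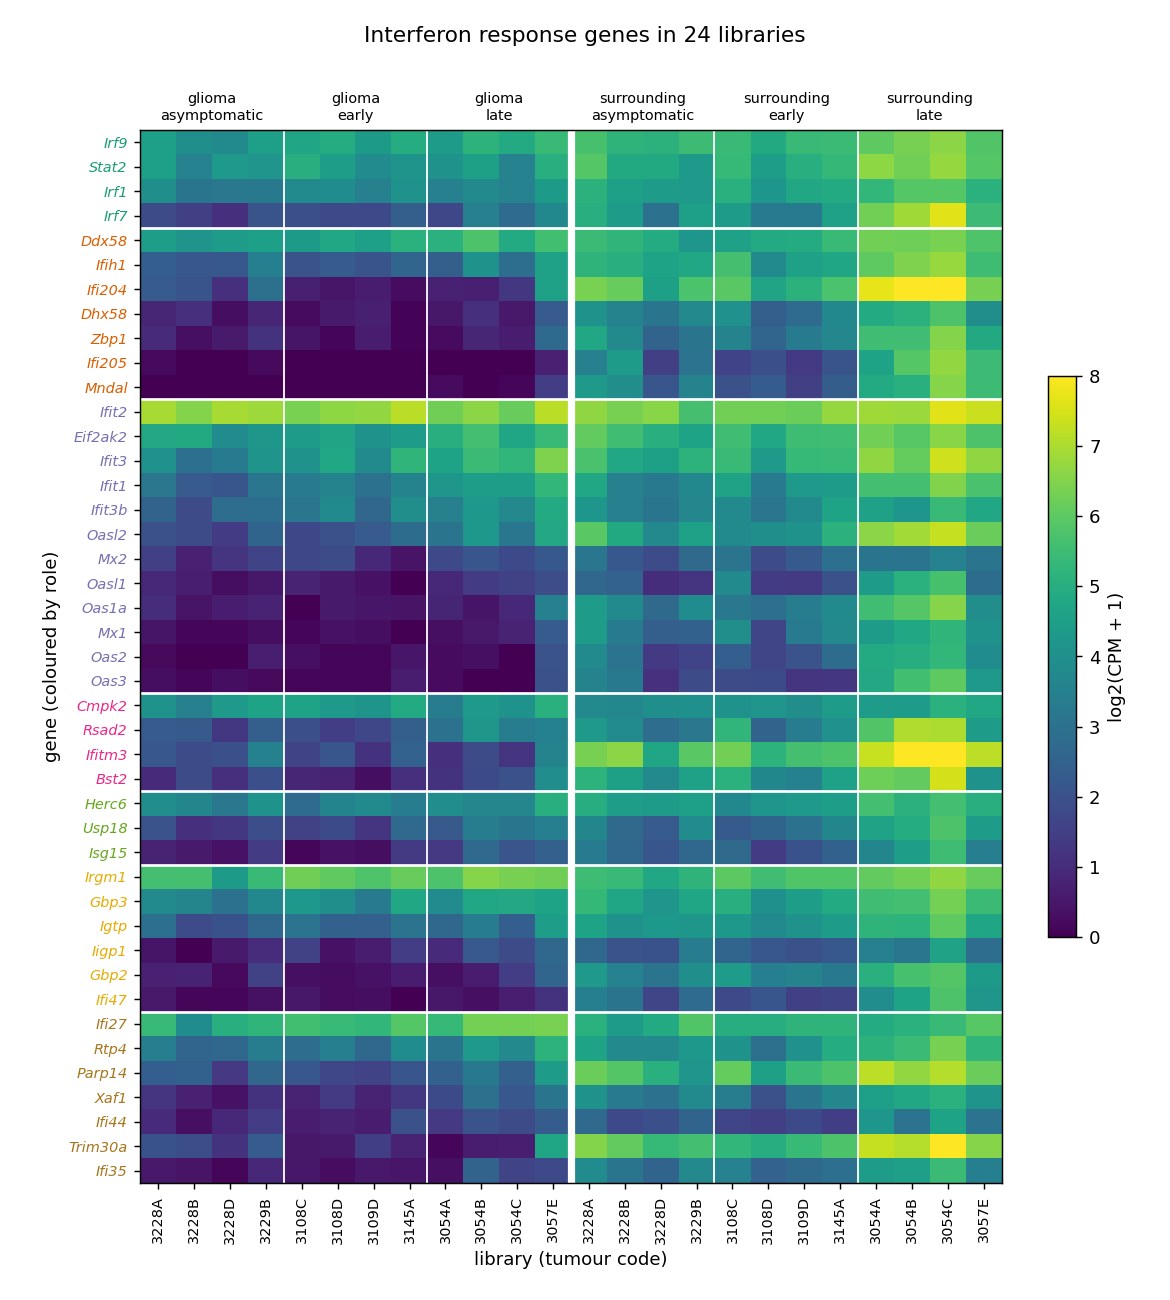
Level of each of the 43 genes (rows, grouped by role) in each of the 24 libraries (columns, gliomas left and surrounding cells right, by stage), as log2(CPM + 1). The colour scale ends at 8, and higher values take its top colour. Most rows are dark in the gliomas and bright in the surrounding cells, while Ifit2, Irgm1, Cmpk2 and Ifi27 are similar in both, and the 3057E glioma is brighter than the other late gliomas.

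The genes that led the list per unit of length differed between the populations. In CPM per kilobase of exon, the highest medians over the 11 gliomas other than 3057E were 28.0 for Ifi27, a mitochondrial and nuclear membrane protein, 25.2 for Ifit2, an RNA-binding antiviral protein, 9.62 for Ifit3 and 9.49 for Irgm1, a GTPase of cell-autonomous immunity. At the other end, Oas3 had 0.014 CPM per kilobase, and Ifi205 and Mndal had a median of 0. In the surrounding cells the leading medians were 117 CPM per kilobase for Ifitm3, which blocks viral entry at endosomes, 25.4 for Bst2 (tetherin), which holds budding virions at the cell surface, 24.9 for Ifit2 and 24 for Ifit3. No test was made between genes.

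Glioma cells held less of most of these transcripts than the surrounding cells. Of the 43 genes, 39 were lower in glioma and none was higher (edgeR quasi-likelihood test, Benjamini-Hochberg adjusted p under 0.05 over 18810 genes tested), while 24.2% of all genes tested were lower and 22% were higher. The median log2 fold change was -2.62 over the 43 genes and 0.06 over all genes. All 4 transcription factors, all 7 sensors, all 3 genes of Isg15 conjugation, 11 of 12 Ifit, Oas and Mx effectors, 3 of 4 membrane and nucleotide effectors, 5 of 6 inducible GTPases and 6 of 7 other genes were lower. Eif2ak2 is counted with the Ifit, Oas and Mx effectors here and below. By role, the median log2 fold change was -4.68 for the sensors, -3.27 for the membrane and nucleotide effectors, -2.92 for the other genes, -2.25 for the Ifit, Oas and Mx effectors, -2.11 for the GTPases, -1.78 for the genes of Isg15 conjugation and -1.30 for the transcription factors. Gbp2, Ifi205, Ifi47, Mndal, Mx1, Oas1a, Oas2, Oas3 and Zbp1 did not pass the filter on low counts when the gliomas were fitted alone. They entered this fit through the surrounding cells, where they were higher, so their calls give no separate measure of the gliomas. Among them Ifi205, Mndal and Zbp1 are sensors. The same holds for them in the comparisons within stages, in the pairs and in the counts without overlap below. In bulk samples, fewer cells of a type and less RNA per cell cannot be told apart. The microglia markers had 153 to 2493 CPM in the gliomas against 2091 to 20042 CPM in the surrounding cells, overlapping only through tumour 3057E. In that pair they summed to 2493 CPM in glioma and 2091 CPM in surrounding cells. The mean log2(CPM + 1) of the 43 genes there was 3.84 in glioma and 4.97 in surrounding cells. The T and NK cell markers (0.447 to 2.65 CPM against 2.77 to 48.5 CPM) and the pericyte and smooth muscle markers (3.42 to 36.4 CPM against 42.3 to 379 CPM) were lower in glioma without overlap. Between 4 and 9 of the T and NK cell markers were at 0 in each glioma. The monocyte and macrophage markers had 29.7 to 497 CPM against 245 to 4899 CPM, with overlap. Also overlapping were the mature oligodendrocyte (171 to 3015 CPM against 2914 to 29674 CPM) and endothelial markers (3.22 to 123 CPM against 90.2 to 282 CPM). Markers of oligodendrocyte progenitors and neurons had higher medians in glioma. The part of these markers was not tested.

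By fitted fold change, the gap was among the widest for neighbouring genes of the Ifi204 family on chromosome 1, which includes sensors of cytosolic DNA. Ifi204 (ENSMUSG00000073489, chr1:173747293-173766943) had a lowest, median and highest value of 0.197, 0.896 and 23.0 CPM in the gliomas, against 22.5, 65.1 and 454 CPM in the surrounding cells. Its groups met only through the 3057E glioma, and its log2 fold change was -5.28 ± 0.56 (SE, n = 12 each, edgeR adjusted p = 1.1e-07). Its neighbours Mndal (chr1:173849126-173942491) and Ifi205 (chr1:174011998-174031810) had 3 and 4 counts in all over the 11 gliomas other than 3057E. Mndal had no count in the asymptomatic and early gliomas, and against a floor of 3 counts over each group of 4 it was at least 206-fold lower in asymptomatic glioma and at least 53.6-fold lower in early glioma than in surrounding cells. Ifi205 had no count in early glioma and was at least 39.7-fold lower there. The fitted log2 fold changes of -8.34 ± 0.72 for Mndal and -7.67 ± 0.65 for Ifi205 (edgeR adjusted p = 1.1e-07 and 2.4e-08) depend on a prior count. Ifi204 shares 30.2% and Mndal 27.2% of its 50-base words with other genes, chiefly Ifi211, so reads may have been split between them. Oas1a shares 57.6% of its words, with Oas1g, and Herc6 shares 23.8%, with Gm45193.

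Among the membrane effectors, Ifitm3 had 1.10, 2.73 and 10.9 CPM (lowest, median, highest) in the gliomas, against 25.7, 79.5 and 454 CPM in the surrounding cells. The groups did not overlap, and the log2 fold change was -4.71 ± 0.41 (edgeR adjusted p = 9.1e-09). Trim30a, a ubiquitin ligase family member known in the mouse to restrain Toll-like receptor signalling, had 0.0845, 0.999 and 25.6 CPM in the gliomas, against 30.7, 60.5 and 250 CPM in the surrounding cells. Here too every glioma was below every surrounding library, although 3057E came close, and the log2 fold change was -4.85 ± 0.58 (edgeR adjusted p = 5.3e-07). Every glioma was below every surrounding library for 7 of the 43 genes (Dhx58, Ifi47, Ifitm3, Gbp2, Ifi205, Mndal and Trim30a), against 5.58% of all genes tested. With 3057E left aside this count was 17, against 7.35% of all genes tested. Of the 7 genes, Ifi47, Gbp2, Ifi205 and Mndal did not pass the filter on low counts in the gliomas alone.

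The gaps were narrower for other called genes. Ddx58, which encodes the RNA sensor RIG-I, had a log2 fold change of -0.59 ± 0.15 (edgeR adjusted p = 0.0025), Ifit3b had one of -0.79 ± 0.24 (adjusted p = 0.0093) and Eif2ak2, the kinase PKR, one of -0.97 ± 0.18 (adjusted p = 0.00011). Ifit3 and Ifit3b share 51.2% and 45% of their 50-base words, mostly with each other, so their separate counts are uncertain. Among the transcription factors the log2 fold changes were -0.99 ± 0.14 for Irf9 and -1.23 ± 0.21 for Stat2, both of the activated complex, and for Irf7, which amplifies interferon production, -3.11 ± 0.32 (edgeR adjusted p = 5.0e-06, 5.5e-05 and 7.6e-08). Glioma was below the surrounding library of the same code in 12 of 12 pairs for 30 genes, against 12.4% of all genes tested, in 11 pairs for 8 genes and in 9 pairs for Ifit3b. With the surrounding libraries of 3108D and 3109D exchanged, since these go against their codes, it was lower in 12 of 12 pairs for 35 genes (12.8% of all genes tested) and in 11 pairs for 3.

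**Figure D2:**
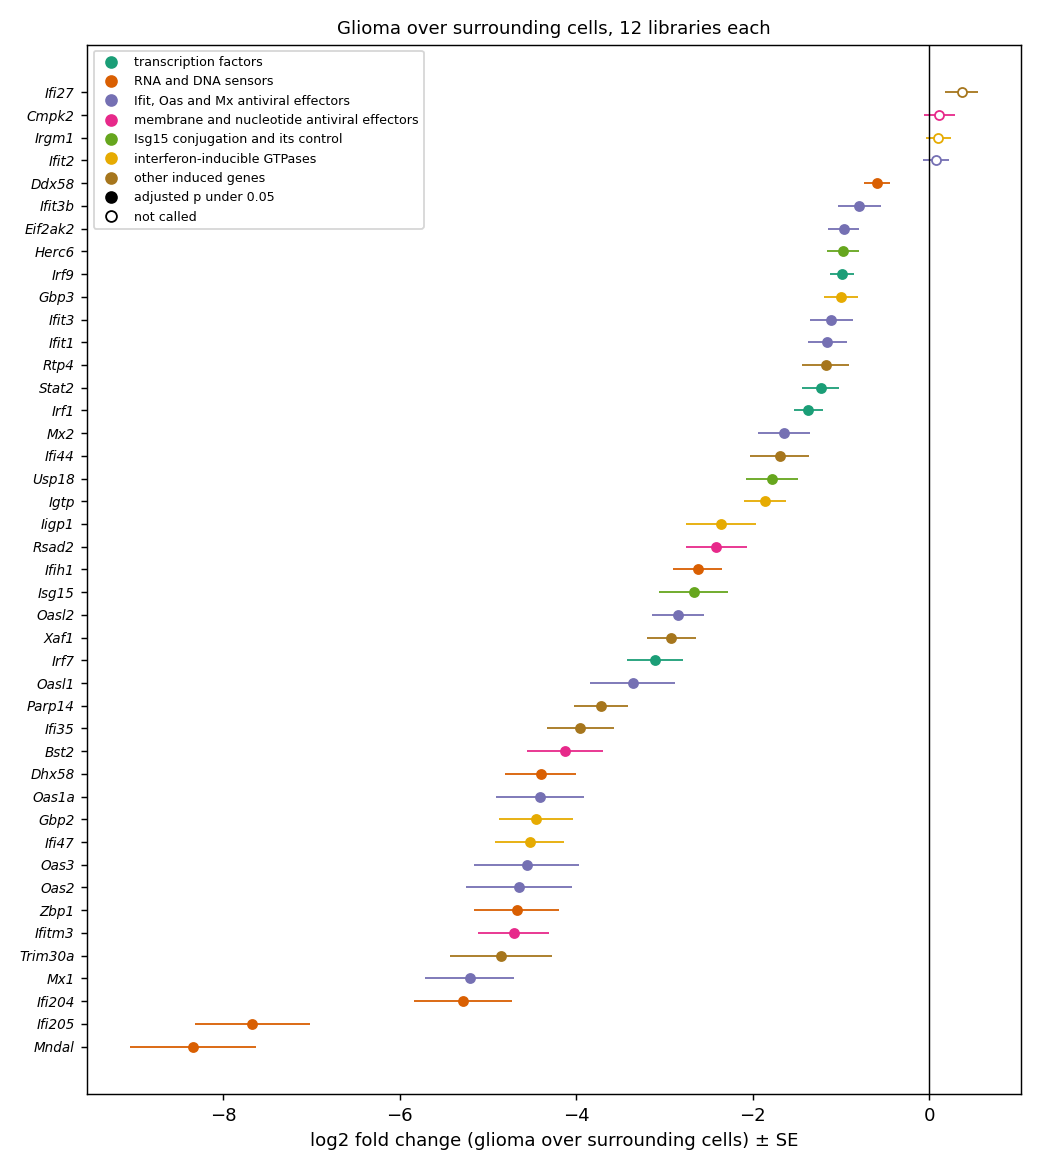
Log2 fold change of glioma over surrounding cells for the 43 genes, with bars of 1 standard error, ordered from highest to lowest and coloured by role. Filled points passed an edgeR adjusted p of 0.05. The 39 filled points all lie below 0 and the 4 open points, Ifit2, Irgm1, Cmpk2 and Ifi27, lie near or just above it.

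Ifit2, Irgm1, Cmpk2 and Ifi27 were not called. Ifit2 had 69.1, 101 and 144 CPM (lowest, median, highest) in the gliomas, against 48.5, 97.9 and 200 CPM in the surrounding cells, and its log2 fold change was 0.08 ± 0.15 (95% interval -0.21 to 0.37, edgeR adjusted p = 0.70). Irgm1 had 19.5, 59.9 and 92 CPM in the gliomas, against 26.4, 55.8 and 99.9 CPM in the surrounding cells, with a log2 fold change of 0.10 ± 0.14 (interval -0.17 to 0.37, adjusted p = 0.57). Cmpk2, a nucleotide kinase of mitochondria, had 9.21, 18.9 and 33.0 CPM in the gliomas, against 12.1, 16.5 and 33.9 CPM in the surrounding cells, with a log2 fold change of 0.11 ± 0.18 (interval -0.23 to 0.46, adjusted p = 0.63). The populations overlapped over nearly their whole range for these 3 genes. Ifi27 had 13.9, 41.4 and 82.5 CPM in the gliomas, against 19.8, 33.5 and 60.01 CPM in the surrounding cells. It was higher in glioma in 10 of 12 pairs, also with 3108D and 3109D exchanged, with a log2 fold change of 0.36 ± 0.19 (interval -0.000685 to 0.73, edgeR adjusted p = 0.12), and it passed the test with tumour as a block (0.36, adjusted p = 0.015). Ifit2 lies on chromosome 19 beside Ifit3, Ifit3b and Ifit1 (chr19:34550694-34576419, chr19:34583531-34588731, chr19:34607970-34613401 and chr19:34640871-34650009 on GRCm38). The other 3 genes of this row were all lower in glioma, with log2 fold changes of -1.16 ± 0.22 for Ifit1 and -1.11 ± 0.24 for Ifit3 (edgeR adjusted p = 0.00018 and 0.00071).

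The populations were also compared within each stage. In asymptomatic tumours 34 of 43 genes were lower in glioma (12.5% of all genes tested were lower), in early tumours 26 (12.4%) and in late tumours 38 (19.9%), and none was higher at any stage (1.3%, 1.06% and 15.4% of all genes tested were higher). Median log2 fold changes over the 43 genes were -2.49, -2.34 and -2.53, against 0.02, 0.08 and 0.04 over all genes, and the medians of asymptomatic and early tumours were the same with Mndal and Ifi205 at their bounds. The smallest adjusted p belonged to Xaf1, a pro-apoptotic partner of XIAP, in asymptomatic tumours (log2 fold change -3.64 ± 0.50, edgeR adjusted p = 6.8e-05), to Parp14, an ADP-ribosyltransferase, in early ones (-4.03 ± 0.54, adjusted p = 3.7e-05) and to Ifitm3 in late ones (-6.14 ± 0.75, adjusted p = 7.7e-06). The difference of these effects between stages is tested further below.

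In late against early surrounding cells, 18 of the 43 interferon genes were higher and none was lower (edgeR adjusted p under 0.05), while 1.41% of the 17616 genes tested were higher and 0.0681% lower. The median log2 fold change was 1.65 over the 43 genes and 0.00 over all genes, and every late library was above every early library for 33 of the 43 genes, against 5.05% of all genes tested. The called genes were 4 of 7 sensors, 5 of 12 Ifit, Oas and Mx effectors, all 3 genes of Isg15 conjugation, 2 of 6 GTPases, 1 of 4 membrane and nucleotide effectors, 1 of 4 transcription factors and 2 of 7 others. The microglia markers summed to 2091 to 20042 CPM in the late, against 5252 to 13219 CPM in the early surrounding libraries. The monocyte and macrophage markers summed to 1222 to 4899 CPM in the late, against 322 to 852 CPM in the early surrounding libraries, with no marker at 0 in either group. The T and NK cell markers summed to 12.9 to 48.5 CPM in the late, against 2.77 to 5.39 CPM in the early ones, with up to 3 of its markers at 0 in an early library. The astrocyte markers were lower without overlap, at 157 to 380 CPM in the late, against 424 to 848 CPM in the early ones, and those of oligodendrocyte progenitors ranged over 590 to 9878 CPM in the late, against 5257 to 11429 CPM in the early ones. The part of these markers in the result was not tested.

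Mndal had 28.5, 32.9, 92.5 and 44.2 CPM in the late surrounding cells (the last value being 3057E), against 2.99, 4.06, 1.85 and 4.18 CPM in the early ones. The 2 stages were far apart, with a log2 fold change of 3.88 ± 0.55 (edgeR adjusted p = 0.017). Ifi205 had 24.1, 57.8, 102 and 43.4 CPM in the late, against 2.04, 2.87, 1.58 and 3.20 CPM in the early surrounding cells, a log2 fold change of 4.50 ± 0.67 (adjusted p = 0.017). Oas3, which makes the oligonucleotide that activates RNase L, had 27.7, 46.5, 63.0 and 18.7 CPM in the late, against 2.51, 2.48, 1.32 and 1.42 CPM in the early surrounding cells, a log2 fold change of 4.29 ± 0.67 (adjusted p = 0.017). The inducible GTPase Ifi47 had 14.3, 23.7, 53.3 and 17.7 CPM in the late, against 2.39, 3.37, 1.85 and 2.14 CPM in the early ones, a log2 fold change of 3.43 ± 0.53 (adjusted p = 0.017). Each of these genes was highest in 3054C.

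Trim30a had 156, 138, 250 and 92.2 CPM in the late surrounding cells, against 38.4, 30.7, 41.4 and 53.8 CPM in the early ones, a log2 fold change of 1.92 ± 0.33 (edgeR adjusted p = 0.021). Ifi44 had 17.4, 7.35, 23.7 and 7.20 CPM in the late, against 2.16, 1.88, 2.46 and 1.78 CPM in the early surrounding cells, a log2 fold change of 2.71 ± 0.46 (adjusted p = 0.021). The stages did not overlap for either gene. Isg15, the ubiquitin-like protein whose promoter holds 3 matches, had 11.6, 20.7, 45.1 and 9.73 CPM in the late, against 5.75, 1.68, 3.08 and 4.63 CPM in the early surrounding cells, a log2 fold change of 2.49 ± 0.53, and its protease Usp18 and the ligase Herc6 rose by 2.17 ± 0.48 and 1.18 ± 0.24. Ifit1 had 47.8, 48.3, 89.2 and 50.7 CPM in the late, against 23.2, 8.62, 18.9 and 20.4 CPM in the early surrounding cells without overlap, but its log2 fold change of 1.70 ± 0.40 was not called (edgeR adjusted p = 0.059).

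DESeq2 called 35 genes in late against early surrounding cells, against 6.52% of all genes tested, and limma voom 36, against 29.5%. The edgeR count of 18 changed with single tumours. It was 10 without 3054A, 6 without 3054B, 6 without 3054C and 0 without 3108D, without 3109D or without 3145A, and 35 without 3057E, where 9.18% of all genes tested were higher and 9.7% lower. For the fits without the other tumours, shares over all genes tested are not given here. Whether calls over all genes fell in the same way is thus not shown. Without 3057E all 4 transcription factors, all 7 sensors and all 3 genes of Isg15 conjugation were called. Late against asymptomatic surrounding cells gave no call in edgeR, where 0% of all genes tested were called, with 41 genes at an unadjusted p under 0.05 (16% of all genes tested) and a smallest adjusted p of 0.13. DESeq2 called 36 genes there, against 5.69% of all genes tested, and limma voom 37, against 23.3%. Every late library was above every asymptomatic library for 30 genes, against 3.17% of all genes tested. Without 3057E, edgeR called 36 genes higher there and none lower (7.58% and 8.83% of all genes tested), among them Oas1a (log2 fold change 2.31 ± 0.38, adjusted p = 0.0088) and Irf7 (2.68 ± 0.51, adjusted p = 0.010). Early against asymptomatic surrounding cells gave no call in edgeR, DESeq2 or limma voom (5 genes at an unadjusted p under 0.05 in edgeR, against 3.66% of all genes tested, with 0% of all genes called). The median log2 fold change there was -0.15, and Mndal (-1.84 ± 0.51) and Ifi205 (-2.0 ± 0.61) had the lowest values.

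**Figure D3:**
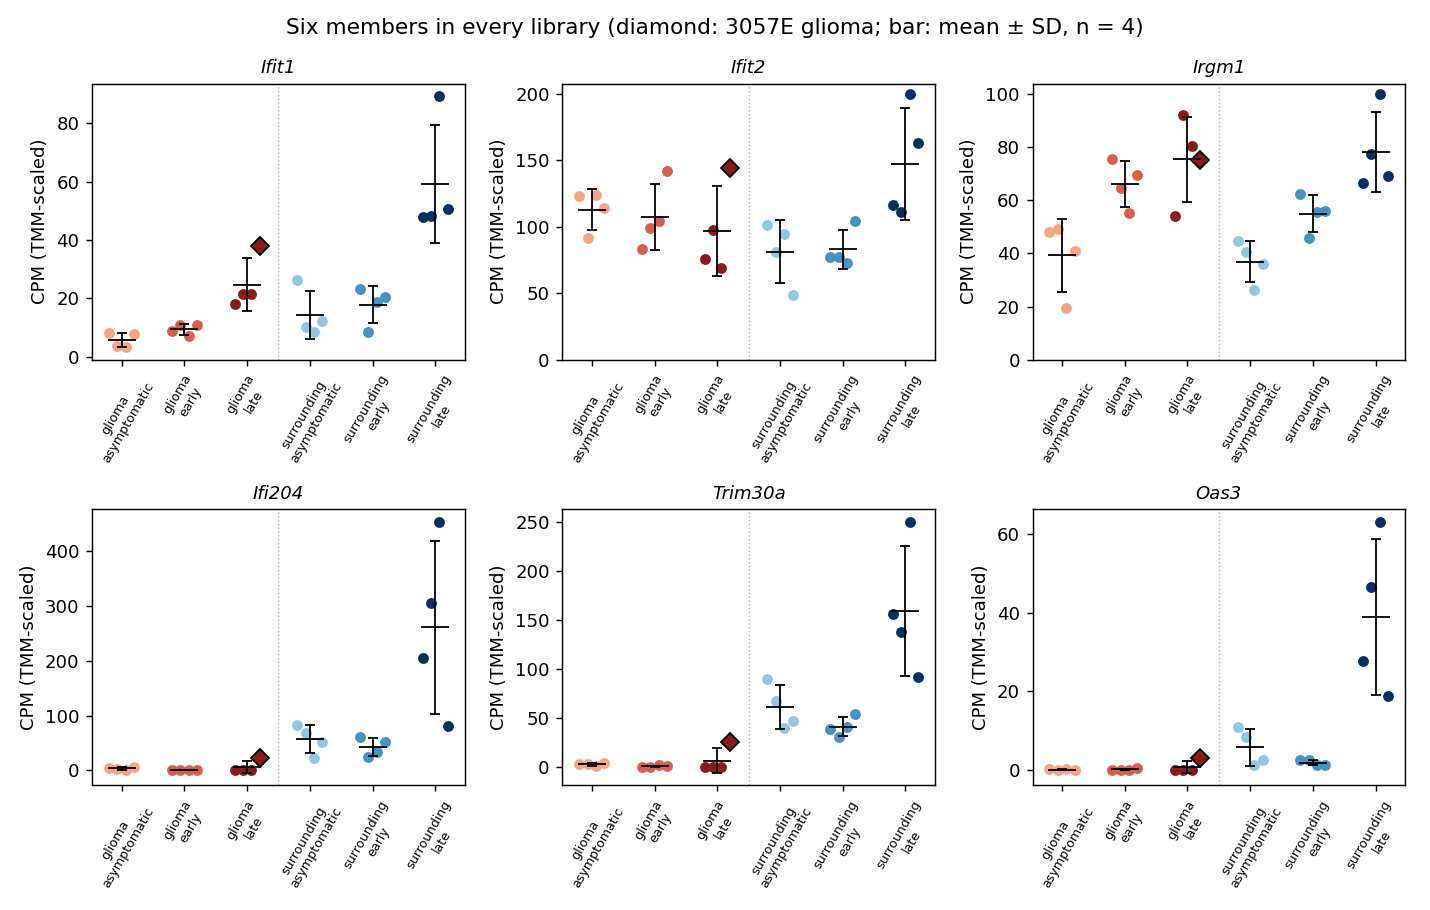
Level in CPM (linear axes) of Ifit1, Ifit2, Irgm1, Ifi204, Trim30a and Oas3 in every library, gliomas left of surrounding cells and stages in order of time. Points are libraries, the diamond in each panel is the 3057E glioma library, and bars are the mean ± SD of 4. Ifit1 is higher in the late gliomas than in the asymptomatic ones, while Ifi204 and Trim30a are low in the gliomas of all stages except 3057E.

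In the glioma cells, Ifit1 was the gene that passed the test between stages. Of the 43 genes, 34 passed the filter on low counts in the glioma fit; Gbp2, Ifi205, Ifi47, Mndal, Mx1, Oas1a, Oas2, Oas3 and Zbp1 did not. In late against asymptomatic glioma Ifit1 was called higher and none was called lower (0.109% and 0.0485% of 16494 genes tested were higher and lower). Ifit1 had 17.9, 21.5, 21.4 and 38.1 CPM in late gliomas, against 8.05, 3.86, 3.43 and 7.81 CPM in asymptomatic ones. No late glioma fell within the asymptomatic range, and the log2 fold change was 2.11 ± 0.34 (edgeR adjusted p = 0.032). The early gliomas had 8.81, 10.9, 7.10 and 10.9 CPM, overlapping the asymptomatic range and below every late glioma. The call was lost on leaving out any 1 of the other 11 tumours in place of 3057E (0 called, adjusted p of up to 0.109 over all alternatives), and 12 genes were called without 3057E. DESeq2 called 12 genes with all tumours, against 3.5% of all genes tested, and limma voom 16, against 18.1%. Of the genes under the filter, Mx1, a dynamin-like GTPase, had 0.253, 0.447, 0.682 and 4.05 CPM in late gliomas, against 0.376, 0.0840, 0.0797 and 0.219 CPM in asymptomatic ones. Such levels rest on few counts, 34 in all for Mx1 over the 11 gliomas other than 3057E, and differences between stages were not tested for these 9 genes in this fit.

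Late against early glioma gave no call in edgeR, where 0.273% of all genes tested were called, with 20 of the 34 genes at an unadjusted p under 0.05 (19.7% of all genes tested). DESeq2 called 11 of them, against 6% of all genes tested, and limma voom 8, against 15.8%. The smallest adjusted p was 0.061, for Rsad2 (viperin), which makes a chain-terminating nucleotide. Rsad2 had 7.10, 17.8, 9.32 and 10.4 CPM in late, against 2.85, 1.79, 2.29 and 4.41 CPM in early gliomas, and the stages did not overlap (log2 fold change 1.97 ± 0.42). Early against asymptomatic glioma gave no call in edgeR, DESeq2 or limma voom (4 genes at an unadjusted p under 0.05 in edgeR, against 4.91% of all genes tested, with 0% of all genes called).

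Tumour 3057E, the late tumour labelled RED, held the highest level among the 12 gliomas for 35 of the 43 genes, against 13.9% of all genes tested. It was above the other 3 late gliomas for 36 genes, against 35.9% of all genes tested. Among genes whose median over those 3 gliomas rested on over 3 counts, its levels over that median were highest for Trim30a (47.6-fold), Ifi204 (34.0-fold), Oas1a (13.7-fold) and Zbp1, a sensor of Z-form nucleic acids (10.8-fold). Those 3 gliomas held 0.0845 to 0.606 CPM of Trim30a and 0.626 to 1.44 CPM of Ifi204, so the leading ratios rest on few counts. The medians of Mndal, Oas2, Oas3 and Ifi205 rested on 3 counts or fewer, and no ratio is given for them. At the other end the ratios were 0.928 for Gbp3, 0.934 for Irgm1, 1.05 for Ifi27 and 1.12 for Rsad2. Its microglia markers summed to 2493 CPM, where 3054A, 3054B and 3054C had 153 to 173 CPM, and its monocyte and macrophage markers to 497 CPM against 29.7 to 33.3 CPM. The part of these markers in the ratios was not tested.

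**Figure D4:**
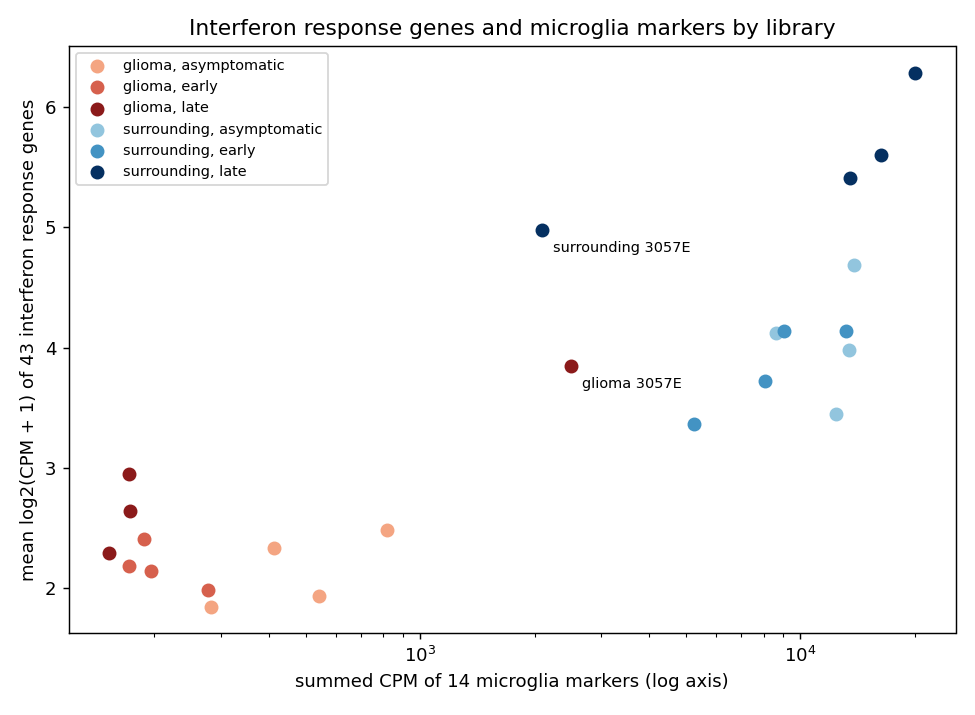
Mean log2(CPM + 1) of the 43 genes against the summed CPM of 14 microglia markers (log axis) in each of the 24 libraries, by population and stage. The 11 other gliomas lie at the lower left, the 3057E glioma lies above them, and the late surrounding libraries lie above the asymptomatic and early ones, including 3057E with 2091 CPM of microglia markers.

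Without 3057E, 10 of the 34 genes tested were higher in late gliomas than in asymptomatic ones (29.4%, against 7.19% of all genes tested). Another 2 were lower (5.88%, against 7.5% of all genes tested), a share no larger than that among all genes. The higher genes were Ifit1, Oasl2, Xaf1, Rsad2, Ddx58, Ifit3, Ifit3b, Irgm1, Ifi27 and Usp18, and the lower genes were Trim30a and Ifi204. Oasl2 had 7.43, 18.1 and 7.88 CPM in late gliomas 3054A, 3054B and 3054C, against 2.93, 2.52, 1.67 and 5.04 CPM in asymptomatic ones, a log2 fold change of 1.85 ± 0.45 (edgeR adjusted p = 0.015). Xaf1 had 2.45, 6.71 and 3.49 CPM in these late gliomas, against 1.28, 0.672, 0.319 and 1.24 CPM in asymptomatic ones, a log2 fold change of 2.23 ± 0.54 (adjusted p = 0.015). Neither gene overlapped between the stages. Ddx58 had 33.6, 53.0 and 28.9 CPM in these late gliomas, against 20.8, 16.7, 19.8 and 21.8 CPM in asymptomatic ones, a log2 fold change of 0.95 ± 0.24 (adjusted p = 0.019).

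Of the 2 lower genes, Trim30a had 0.0845, 0.537 and 0.606 CPM in late gliomas 3054A, 3054B and 3054C, against 3.01, 2.77, 1.27 and 4.01 CPM in asymptomatic ones. All 3 lay below all 4, and the log2 fold change was -2.74 ± 0.70 (edgeR adjusted p = 0.021). At such levels the Trim30a values of these late gliomas rest on few counts. Ifi204 had 0.676, 0.626 and 1.44 CPM in these late gliomas, against 3.91, 3.19, 1.12 and 6.79 CPM in asymptomatic ones, a log2 fold change of -2.03 ± 0.61 (adjusted p = 0.041), with 3228D inside the late range. Trim30a and Ifi204 passed the filter on low counts here through the asymptomatic gliomas, where they were higher. Their calls therefore give no separate measure of the late gliomas, and neither gene was called against early glioma. The microglia markers were also lower in these late gliomas, at 153 to 173 CPM, against 282 to 819 CPM in asymptomatic ones, as were the astrocyte markers (219 to 379 CPM against 454 to 578 CPM) and those of oligodendrocyte progenitors (10044 to 11373 CPM against 12044 to 17458 CPM). The endothelial markers summed to 14.95, 123 and 74.3 CPM in 3054A, 3054B and 3054C, against 7.97 to 53.5 CPM in the asymptomatic gliomas. They were highest in 3054B of these 3 late gliomas, as were Oasl2, Xaf1 and Ddx58. Also highest in 3054B were the mature oligodendrocyte (1541 CPM), neuron (254 CPM), pericyte and smooth muscle (15.8 CPM) and oligodendrocyte progenitor markers (11373 CPM). The microglia, monocyte and macrophage, T and NK cell and astrocyte markers were not. The part of these markers in the higher and lower genes was not tested. Gliomas 3054A, 3054B and 3054C were all above every asymptomatic glioma for 11 genes and all below for 1 (Trim30a), against 14.5% of all genes tested in each direction. Against early glioma, without 3057E, 6 genes were higher and none lower (8.58% and 8.61% of all genes tested). They were Rsad2 (log2 fold change 1.97 ± 0.43, edgeR adjusted p = 0.0090), Ifit1, Xaf1, Oasl2, Isg15 and Ifi35. The late gliomas without 3057E were all above every early glioma for 9 genes, against 13.4% of all genes tested. The endothelial markers were higher without overlap there too, at 14.95 to 123 CPM in these late gliomas, against 3.22 to 11.48 CPM in the early ones, and their part was not tested.

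**Figure D5:**
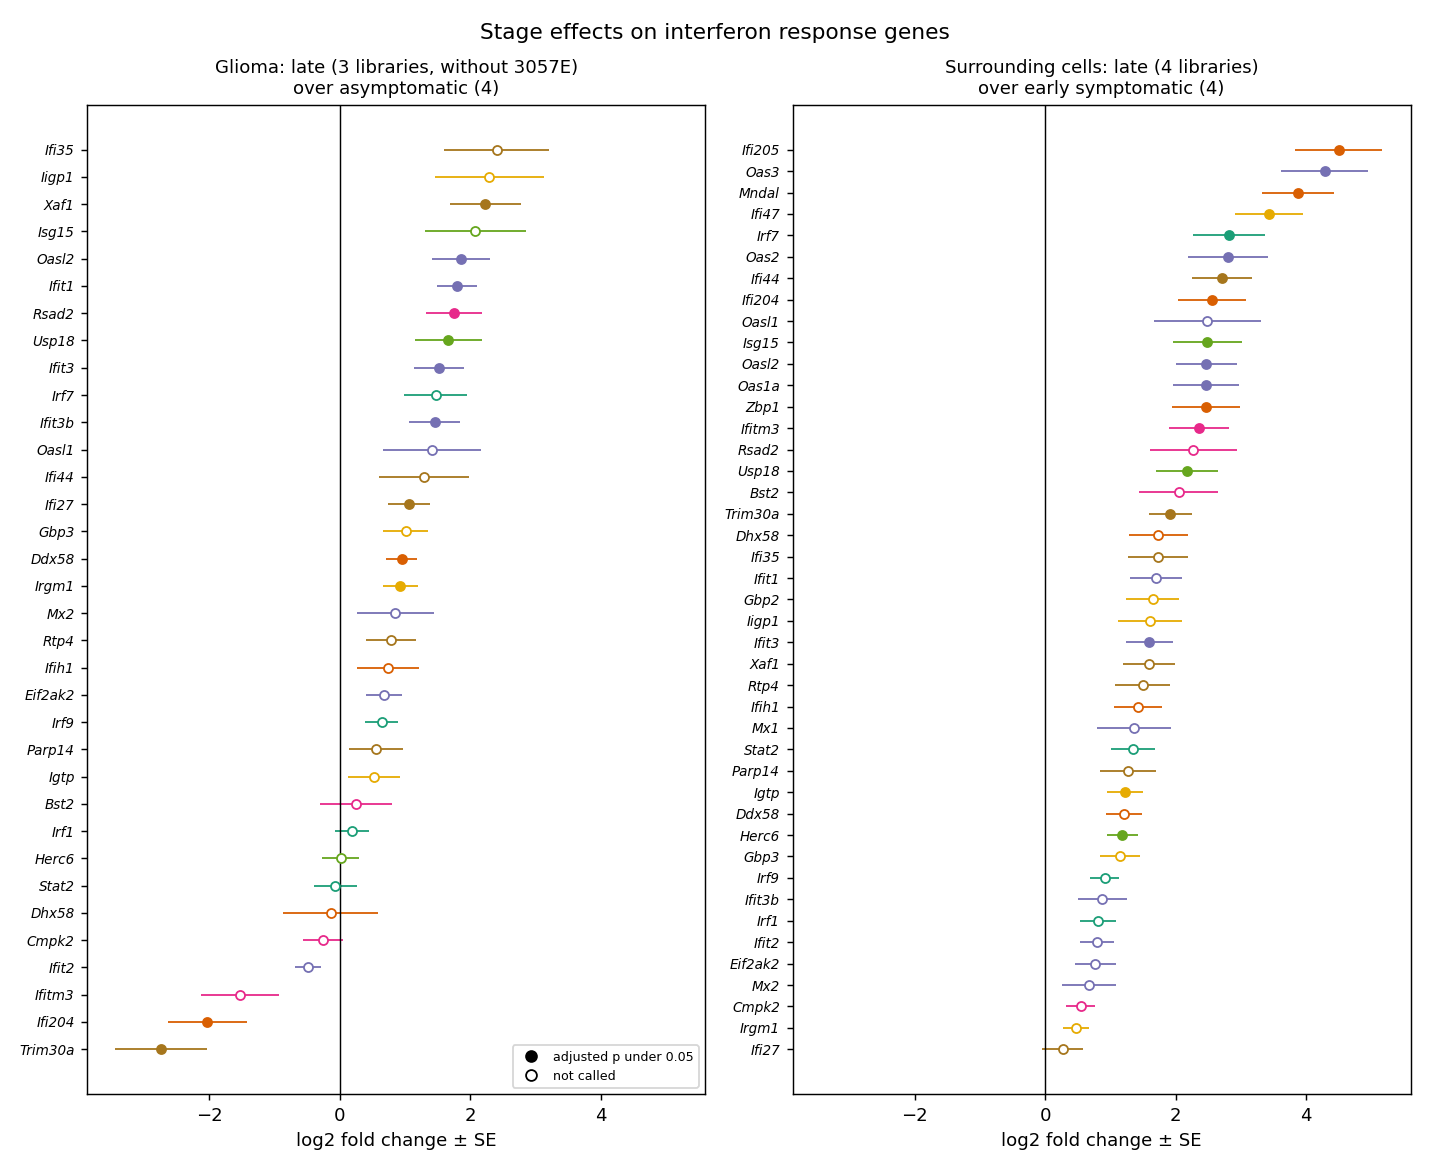
Log2 fold change, with bars of 1 standard error, of late gliomas without 3057E over asymptomatic gliomas (left, 34 genes tested) and of late over early surrounding cells (right, 43 genes). Filled points passed an edgeR adjusted p of 0.05. On the left 10 filled points lie above 0 and 2, Trim30a and Ifi204, below it, and on the right all 18 filled points lie above 0.

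Whether the change with stage differed between the populations was tested as an interaction. With all tumours, no gene was called for late against early, for late against asymptomatic or for early against asymptomatic (edgeR, 0% of 18810 genes called). At an unadjusted p under 0.05 there were 5, 4 and 1 genes, against 6.2%, 8.43% and 1.54% of all genes tested. DESeq2 called none, and limma voom called 1, 4 and 0, against 5.92% and 6.84% of all genes in the comparisons that involve late tumours. Without 3057E, 5 genes were called in each of the comparisons that involve late tumours, all with a lower change in glioma. Among all genes tested, 2.54% and 4.22% had a lower and 1.97% and 3.23% a higher change. For late against asymptomatic these were Trim30a (-4.32 ± 0.68 on the log2 scale, edgeR adjusted p = 0.00092), Ifi204 (-4.55 ± 0.74, adjusted p = 0.0012), Ifitm3 (-3.86 ± 0.78, adjusted p = 0.0048) and Ifit2 (-1.34 ± 0.35, adjusted p = 0.025), with Oas3 as the fifth. For late against early they were Oas3, Trim30a, Ifitm3, Stat2 and Ifit2. Oas3 had 22 counts over the 11 gliomas and entered this fit through the surrounding cells, where it was higher in late tumours, so its call gives no separate measure of the gliomas. In the late gliomas other than 3057E, Trim30a had 0.0845 to 0.606 CPM and Ifi204 had 0.626 to 1.44 CPM. The size of their interactions therefore rests on few counts in late glioma.

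Ifit2 shows this difference at a well measured level. It had 76.0, 97.1, 69.1 and 144 CPM in late gliomas, against 116, 111, 200 and 163 CPM in their own surrounding cells, and glioma was lower in 4 of 4 pairs. In asymptomatic tumours it had 123, 91.1, 124 and 114 CPM in glioma, against 101, 80.8, 94.6 and 48.5 CPM in surrounding cells, and glioma was higher in 4 of 4 pairs. The early gliomas had 83.5, 98.8, 104 and 142 CPM, against 77.4, 76.8, 72.8 and 105 CPM in their surrounding cells. With all tumours the interaction of late against asymptomatic was -1.08 ± 0.36 (edgeR adjusted p = 0.50).

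Of 83 other genes of the interferon pathway in 6 lists, 81 were in the table. The 21 interferon ligands had almost no counts, and 14 of them had none in any library. Ifng had 44 counts and Ifnb1 had 42 over the 24 libraries, and none of the ligands passed the filter on low counts. Ifnb1 had no count in any glioma, and among the late surrounding libraries it had 0.120, 0.678, 1.98 and 0 CPM. At this depth the ligands could not be compared between groups.

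Of 6 receptor chains 5 were tested, and all 5 were lower in glioma. Beside this and the counts that follow, 24.2% of the 18810 genes tested were lower in glioma and 22% were higher. Genes of these lists could enter this fit through the surrounding cells alone, and a call of such a gene gives no separate measure of the gliomas. Which of them pass the filter on low counts in the gliomas alone is not given here. Ifngr1 differed most, with a log2 fold change of -3.17 ± 0.23, followed among the 3 most abundant by Ifnar2 with -1.64 ± 0.18, while Ifnar1, the other chain of the type I receptor, differed by -0.33 ± 0.11 (edgeR adjusted p = 1.1e-09, 1.6e-07 and 0.017). Of 9 kinases and other STAT and IRF factors 7 were lower, but Stat3 (0.15 ± 0.14) and Jak2 (0.06 ± 0.13) were not called. All 14 sensors and adaptors that induce interferon were lower, led in level by Unc93b1 (-4.59 ± 0.38), which carries Toll-like receptors to endosomes, the RNA receptor Tlr7 (-4.72 ± 0.65) and the DNA pathway adaptor Sting1 (-4.01 ± 0.35). All 18 tested targets of interferon gamma were lower, among them the immunoproteasome subunit Psmb8 (-2.80 ± 0.27) and the peptide transporter Tap1 (-2.10 ± 0.23). Of 11 inhibitors 7 were lower, such as Ptpn6 (-5.07 ± 0.47), while the ubiquitous phosphatase Ptpn11 (-0.14 ± 0.14) was not called.

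In late against early surrounding cells 7 of 18 interferon gamma targets were higher, against 1.41% of all genes tested, including Gbp7 (log2 fold change 1.37 ± 0.29, edgeR adjusted p = 0.039). That count was 0 without 3108D, without 3109D or without 3145A, 3 without 3054A and 1 without 3054B or without 3054C, and 15 without 3057E. Apart from the fit without 3057E, shares over all genes tested are not given here for these fits. Of the other lists none of 5 receptor chains was called by edgeR, and 1 gene was called in each of the sensor and inhibitor lists. They were Ikbke, a kinase that activates interferon regulatory factors (2.85 ± 0.48 on the log2 scale, adjusted p = 0.021), and Samhd1, which degrades deoxynucleotides (1.88 ± 0.29, adjusted p = 0.017). Both are named after their values were seen. Without 3057E, 3 of 5 receptor chains, 12 of 14 sensors and adaptors and 4 of 11 inhibitors were higher, against 9.18% of all genes tested. Without 3108D, without 3109D or without 3145A, no gene of these lists was called.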

How the data were processed

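Bulk poly(A) RNA of sorted cells was sequenced from a CORALL total RNA library kit, per the labels' protocols. The authors deposited a table of expected counts per gene, and the submitters' processing notes name RSEM 1.3.1, STAR 2.7.5c and GRCm38; the strand setting and annotation release are not given in the sources used here. The deposited expected counts were rounded to whole numbers. Gene coordinates came from GENCODE mouse release 21 (98.73% of gene IDs matched, all 43 of the interferon genes) and promoters from RefSeq on GRCm38.p6. Library totals of 9.08e+06 to 1.55e+07 limit precision for the low genes.

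Counts were scaled by TMM and tested in edgeR 4.0.16 (R 4.3.3) with robust quasi-likelihood fits, a minimum count of 10 and Benjamini-Hochberg adjustment over all genes tested, called at 0.05. Glioma against surrounding cells and the interactions used all 24 libraries as 6 group means. Stages were compared in separate fits of the 12 glioma and the 12 surrounding libraries. The standard error is the log2 fold change divided by the root of F, and intervals are 1.96 standard errors on each side. CPM values are scaled by TMM. The 43 genes and all lists were chosen with earlier results of these data known. Genes given with full values are the 2 most abundant of each role, the 3 largest and 3 smallest called changes between populations, every gene not called there and up to 6 called genes per stage comparison, with the same rule used without 3057E; Isg15, Irf7, Rsad2 and Mx1 were added as examples, and 1 other gene is not reported here. Scripts were tested on simulated data.

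Shared codes mark the same brain, per the labels, but the libraries of 3108D and 3109D go against theirs by Xist. Deviations of the paired libraries from their group means correlated at 0.0247 (3109D) to 0.482 (3108C), with 0.0420 for 3108D, and tumour was used as a block in an alternative, also with these 2 surrounding libraries exchanged. Other alternatives were DESeq2 1.42.0, limma voom 3.58.1 with sample weights, DESeq2 size factors, no filter, a minimum count of 50, leaving out each tumour and leaving out 3108D and 3109D.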

Additional observations from a re-analysis of the deposited data

Results flagged for a closer look

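Of 138 groups of 4 libraries checked for a library far from the other 3, 19 were flagged, where chance flags about 1 in 20. In 8 of them the library was the 3057E glioma. Among the late gliomas, Trim30a had 25.6 CPM in 3057E and 0.0845 to 0.606 CPM in the others, Ifi204 had 23.0 CPM and 0.626 to 1.44 CPM, and Herc6 had 32.1 CPM and 11.9 to 14.2 CPM. Bst2 had 14.1 CPM in 3057E and 1.27 to 2.96 CPM in the other 3, Ifitm3 had 10.9 CPM and 1.10 to 2.59 CPM, and Oas3 had 2.98 CPM and 0 to 0.169 CPM. Mndal had 1.74 CPM in 3057E and 0 to 0.169 CPM in the other 3, and Ifi205 had 0.662 CPM and 0 in the others.

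Among the other gliomas, Ifi27 was low in late 3054A at 39.9 CPM, with 78.5 to 82.5 CPM in the other 3, and Ifitm3 was high in asymptomatic 3229B at 10.4 CPM, with 2.52 to 3.46 CPM in the other 3. Early 3145A had 2.96 CPM of Ifi44, with 0.534 to 0.696 CPM in the other 3, and 0.526 CPM of Oas3, with 0.0789 to 0.0994 CPM in the other 3.

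Among the surrounding cells, late 3054C was high for Ifit1 at 89.2 CPM, with 47.8 to 50.7 CPM in the other 3, and for Gbp3 at 79.4 CPM, with 42.6 to 47.9 CPM in the other 3. Early 3108D was low for Ifit3 at 18.6 CPM (40.1 to 42.0 CPM in the other 3), Irf9 at 28.1 CPM (40.8 to 42.4 CPM) and Eif2ak2 at 26.2 CPM (44.8 to 46.2 CPM). Early 3145A had 105 CPM of Ifit2, with 72.8 to 77.4 CPM in the other 3, and asymptomatic 3228A had 30.9 CPM of Herc6, with 19.9 to 21.7 CPM in the other 3.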

How the results depend on the processing

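The count of 39 genes lower in glioma was the same under every alternative, with 1 more gene, Ifi27, higher under limma voom, the replicate block and the block with 3108D and 3109D exchanged (40 called). Within stages the count stayed within 1.5 times of 34, 26 and 38; leaving out 1 tumour gave 25 to 38 in asymptomatic, 20 to 28 in early and 29 to 40 in late tumours. The replicate block gave 35, 27 and 40 and no call for any interaction; it could be fitted only where both populations enter, and changed no other call of the population or interaction comparisons. In late against early glioma, where edgeR called 0, DESeq2 called 11, voom 8, no filter 3 and a fit of all 24 libraries 1, and leaving out 1 tumour gave 0 to 6. In late against asymptomatic glioma, where 1 was called, these gave 12, 16, 5 and 2, leaving out 1 tumour gave 0 to 12, and 0 were called without 3108D and 3109D. In late against early surrounding cells, where 18 were called, DESeq2 gave 35, voom 36, leaving out 1 tumour 0 to 35 and leaving out 3108D and 3109D 0. In late against asymptomatic surrounding cells, where 0 were called, DESeq2 gave 36, voom 37, all 24 libraries 7, and leaving out 1 tumour 0 to 36. The interactions of late tumours gave 1 and 4 calls with voom and 0 to 5 on leaving out 1 tumour. Early against asymptomatic gave 0 throughout. Shares over all genes tested are not given in this section, so its counts are not set against those of all genes. The log2 fold change between populations of Ifit2 ran between -0.0397 (without 3229B) and 0.184 (without 3054C), with -0.04 without 3057E. That of Cmpk2 was -0.00556 with voom and ran between -0.0629 (without 3057E) and 0.200 (without 3054C). None of these was called. Depth limits the genes with few counts in glioma. The cause of these changes was not tested.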

Other observations

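A few other genes of the pathway also differed between late gliomas and asymptomatic ones once 3057E was left out. In that comparison 7.19% of all genes tested were higher and 7.5% lower. How many genes of the pathway lists were called there is not given here, so nothing is drawn for the pathway as a whole. The RNA receptor Tlr3 rose by 1.69 ± 0.42 on the log2 scale, the shared receptor chain Il10rb by 1.3 ± 0.29, Ifnar2 by 0.80 ± 0.23 and the phosphatase Ptpn2 by 0.77 ± 0.22, while Tlr7 and Irf5 were lower, with log2 fold changes of -3.24 ± 0.75 and -2.24 ± 0.61 (edgeR, all with an adjusted p under 0.05). These genes, Ifnar2 and Tlr7 apart, are named after their values were seen.

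Across the 43 genes, the log2 ratio of 3057E to the median of the other 3 late gliomas, with 1 CPM added to both, had a Spearman rho of -0.51 with the log2 fold change of asymptomatic glioma over surrounding cells, and -0.47 over 41 genes without the 2 farthest. The points are genes measured in the same libraries and are not independent replicates.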
